A study of Mus musculus with 6 samples.

Results

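The genes described here are the simple epithelial keratin genes *Krt7*, *Krt8*, *Krt18* and *Krt19* and the placenta-linked genes *Plac1*, *Plac8* and *Ascl2*, 7 of the 17097 genes with a symbol of their own on the arrays of this series. They were taken by symbol, and the 7 symbols were chosen by their measured differences on these same arrays, so their levels and differences are given as a description, with no test. All 7 were annotated, by 10 probe sets in all. *Krt8* had 2 probe sets, *Ascl2* had 3 and the other genes had 1 each.

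The series has 6 arrays, 1 per condition, made from E14tg2a mouse embryonic stem cells (ESCs) and the epiblast-like cells (EpiLCs) derived from them by activin A and bFGF on fibronectin. *Tet1*/*Tet2* KD EpiLCs + PRDM14 and *Tet1*/*Tet2* KD EpiLCs (d2) carried lentiviral shRNAs against *Tet1* and *Tet2*, and EpiLCs + PRDM14, EpiLCs (d2) and EpiLCs (d4) carried a scramble shRNA. The label of the ESCs names no shRNA. Per the methods, the cells held a piggyBac Tet-on cassette for FLAG-tagged *Prdm14* and came from picked colonies, and doxycycline was added when day 2 EpiLCs were replated in GK15 medium, so doxycycline and PRDM14 cannot be told apart. The labels give day 2 and day 4 for the EpiLCs without PRDM14 and no day for the arrays with PRDM14, which the scheme of the study places on day 4. The day 4 array without PRDM14 is therefore the same-day reference for EpiLCs + PRDM14. Per the methods, cultures with and without doxycycline were both replated in GK15 after EpiLC induction in another medium. A difference from a day 2 array thus spans the replating and the change of medium as well as the days. No array of KD EpiLCs at day 4 without PRDM14 was analysed here. In the KD-labelled pair the days in culture, the change of medium and PRDM14 therefore cannot be told apart.

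Keratins are intermediate filament proteins that assemble as obligate pairs of a type I and a type II chain. KRT8 and KRT18 form the first keratin pair of the mouse embryo and appear in the trophectoderm, the outer layer of the blastocyst that gives rise to the trophoblast of the placenta. KRT7 (type II) and KRT19 (type I) join them in trophoblast and in other simple epithelia. *Plac1* is an X-linked gene expressed mainly in trophoblast, *Plac8* encodes a small cysteine-rich protein first catalogued in placenta, and *Ascl2* encodes a basic helix-loop-helix factor that is needed for the spongiotrophoblast and is expressed from the maternal allele.

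Levels are given as the log2 signal minus the median of the array, for the probe set of each gene with the highest mean over the 6 arrays. Differences between arrays that share a shRNA, or between these and the ESCs, were taken from the values as deposited, which changes a difference by at most 0.00847. The KD-labelled arrays have deposited medians of 5.07, where the others have 5.28 to 5.29, so differences between KD-labelled and scramble arrays are given after subtracting the medians. A difference was called higher or lower when it reached 1.5-fold, which is 0.585 on the log2 scale and the threshold in the methods. With no replicates, no difference can be set against a spread between cultures. Over 9 housekeeping genes the difference of EpiLCs + PRDM14 from EpiLCs (d4) lay between -0.28 and 0.13. Some other comparisons had a wider range. Relative to ESCs, *Pgk1* of this list was past 1.5-fold, higher by 0.66 at day 2, 1.06 at day 4 without PRDM14 and 0.78 with it. Its difference in KD EpiLCs + PRDM14 minus EpiLCs + PRDM14 was -0.51. The mean level of the 9 genes was 6.03 to 6.18 above the array median, so they do not show how far dim transcripts such as *Krt19* move. In a bulk RNA sample, fewer cells of a type and less RNA per cell cannot be told apart.

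The labels were checked on marker genes. Of 11 naive pluripotency genes, 9 were past the threshold and higher in EpiLCs + PRDM14 than in EpiLCs (d4), among them *Klf4* (2.00), and of 8 primed epiblast genes 3 were lower, among them *Pou3f1* (-3.74). *Prdm14* itself stood 0.34 below the array median in EpiLCs + PRDM14 and 0.10 below it in EpiLCs (d4). Whether its probe set lies in the transgene was not analysed here, so this checks nothing. *Tet1* was not analysed here, and *Tet2* was 0.54 lower in KD EpiLCs + PRDM14 than in EpiLCs + PRDM14 and 0.17 higher in KD EpiLCs (d2) than in EpiLCs (d2), both within 1.5-fold. The day 2 value does not show the lowering that the KD label implies, so KD in the names below repeats the labels. It rests on *Tet2* alone and on 1 array per condition. Per the methods, knockdown efficiency was examined by qRT-PCR and western blotting, which were not analysed here. The 18S control probe sets lay 6.09 and 5.85 above the array median on the arrays of KD EpiLCs + PRDM14 and KD EpiLCs (d2), and 6.43 to 6.50 above it on the others. The 3' minus 5' difference of the actin controls was 0.41 to 0.66 over the 6 arrays.

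The main pattern was that all 7 genes were higher past 1.5-fold in EpiLCs (d4) than in EpiLCs (d2), where 2.17% of all genes were, and that with PRDM14 *Krt8*, *Krt18*, *Krt19* and *Ascl2* were lower than on the same day without it. *Plac8* was not, and *Krt7* (-0.50) and *Plac1* were lower by less than the threshold. The 4 of 7 genes that were lower with PRDM14 stand beside 2.15% of all genes. Both comparisons were in view when the genes were chosen, so nothing is read from these counts. The median difference of the 7 genes in EpiLCs + PRDM14 minus EpiLCs (d4) was -0.90, and the median of all genes was 0.01.

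**Figure D1:**
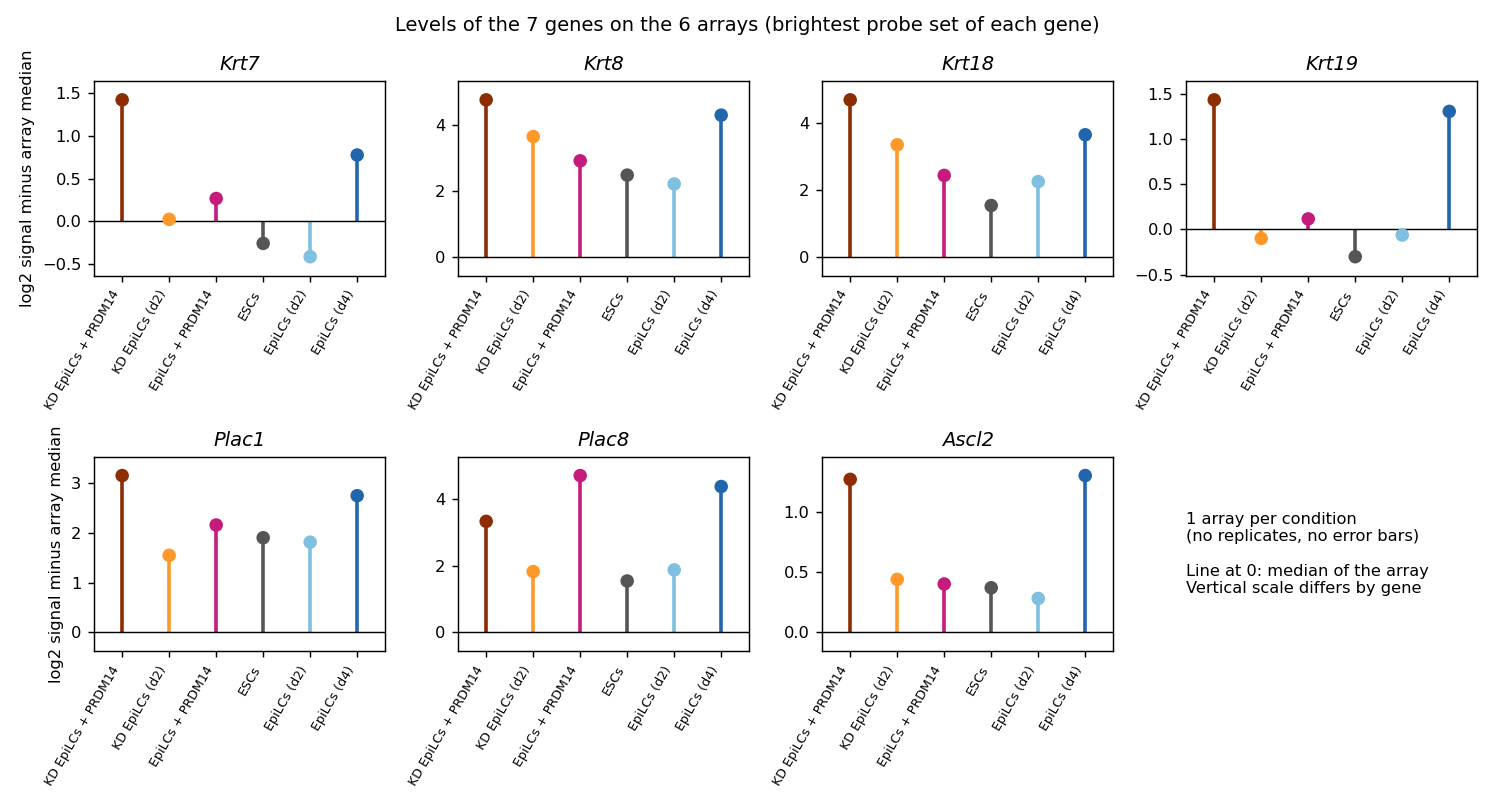
Level of each of the 7 genes (panels) on the 6 arrays (horizontal axis), as log2 signal minus the array median, by the brightest probe set; KD stands for *Tet1*/*Tet2* KD. In 6 panels the tallest points are KD EpiLCs + PRDM14 and EpiLCs (d4), and in the *Plac8* panel they are EpiLCs + PRDM14 (4.71) and EpiLCs (d4) (4.38).

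*Krt8*, the type II chain of the first embryonic keratin pair, stood 2.91 above the array median in EpiLCs + PRDM14, 2.48 above it in ESCs, 2.21 in EpiLCs (d2) and 4.30 in EpiLCs (d4). The KD-labelled arrays had 4.76 in KD EpiLCs + PRDM14 and 3.64 in KD EpiLCs (d2). The order was thus KD EpiLCs + PRDM14 and EpiLCs (d4) at the top, 0.46 apart and within 1.5-fold of each other, then KD EpiLCs (d2), then EpiLCs + PRDM14, ESCs and EpiLCs (d2), whose neighbours lay within 1.5-fold. *Krt8* was 2.61-fold lower in EpiLCs + PRDM14 than in EpiLCs (d4) (-1.38 log2, the 46th lowest of 17097 genes) and 1.63-fold higher than in EpiLCs (d2). From day 2 to day 4 without PRDM14 the difference was 2.09, or 4.24-fold.

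*Krt18*, the type I partner of *Krt8*, stood 2.43 above the array median in EpiLCs + PRDM14, 1.53 above it in ESCs, 2.25 in EpiLCs (d2) and 3.65 in EpiLCs (d4). KD EpiLCs + PRDM14 had 4.70 and KD EpiLCs (d2) had 3.35. The highest array was again KD EpiLCs + PRDM14, here 1.05 above the next, and the lowest was the ESCs. The gene was 2.32-fold lower in EpiLCs + PRDM14 than in EpiLCs (d4), and 1.14-fold higher than in EpiLCs (d2), which is within the threshold. *Krt18* was the only one of the 7 genes past the threshold in EpiLCs (d2) minus ESCs (0.71, 1.63-fold higher), where 2.32% of all genes were higher.

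*Krt19*, a type I keratin gene, stood near or below the array median on 4 arrays. It was 0.12 above the median in EpiLCs + PRDM14, 0.30 below it in ESCs, 0.06 below it in EpiLCs (d2) and 1.31 above it in EpiLCs (d4). The KD-labelled arrays had 1.43 above the median in KD EpiLCs + PRDM14 and 0.10 below it in KD EpiLCs (d2). There were 2 high arrays and 4 low ones: KD EpiLCs + PRDM14 and EpiLCs (d4) lay 0.13 apart, EpiLCs + PRDM14 followed 1.19 lower, and the 4 low arrays had gaps of 0.04 to 0.20. *Krt19* was 2.27-fold lower in EpiLCs + PRDM14 than in EpiLCs (d4) and 1.13-fold higher than in EpiLCs (d2).

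*Krt7*, the type II keratin gene of trophoblast and ducts, stood 0.27 above the array median in EpiLCs + PRDM14, 0.26 below it in ESCs, 0.41 below it in EpiLCs (d2) and 0.78 above it in EpiLCs (d4). KD EpiLCs + PRDM14 had the highest level, 1.42 above the median, and KD EpiLCs (d2) had 0.02. Apart from that array, no gap between neighbours in the order reached 1.5-fold. *Krt7* was 1.42-fold lower in EpiLCs + PRDM14 than in EpiLCs (d4), under the threshold, and 1.60-fold higher than in EpiLCs (d2), over it.

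*Plac8* differed from the other members. It stood 4.71 above the array median in EpiLCs + PRDM14, 1.55 above it in ESCs, 1.88 in EpiLCs (d2) and 4.38 in EpiLCs (d4), and 3.34 in KD EpiLCs + PRDM14 and 1.83 in KD EpiLCs (d2). The 3 arrays that the scheme places past day 2 were high and the other 3 low. With PRDM14 it was 1.26-fold higher than in EpiLCs (d4), within the threshold, and 7.13-fold higher than in EpiLCs (d2), the fifth largest of all genes. Without PRDM14 the step from day 2 to day 4 was 5.66-fold, the 4th largest of all genes.

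*Plac1*, the X-linked trophoblast gene, stood 2.15 above the array median in EpiLCs + PRDM14, 1.90 above it in ESCs, 1.81 in EpiLCs (d2) and 2.74 in EpiLCs (d4). KD EpiLCs + PRDM14 had 3.15 and KD EpiLCs (d2) had the lowest level, 1.55. Below the 2 top arrays, the neighbours in the order lay within 1.5-fold. Its difference of EpiLCs + PRDM14 from EpiLCs (d4) was -0.584 as deposited, just short of the threshold of 0.585, and -0.588 with the medians subtracted, just past it.

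*Ascl2*, the imprinted helix-loop-helix gene, stood 0.40 above the array median in EpiLCs + PRDM14, 0.37 above it in ESCs, 0.28 in EpiLCs (d2) and 1.31 in EpiLCs (d4). KD EpiLCs + PRDM14 had 1.28 and KD EpiLCs (d2) had 0.44. The top arrays differed by 0.03, and the 4 low arrays had gaps of 0.03 to 0.09. *Ascl2* was 1.87-fold lower in EpiLCs + PRDM14 than in EpiLCs (d4) and 1.09-fold higher than in EpiLCs (d2).

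The genes with several probe sets give a check of the measurement within an array. The second *Krt8* probe set, of the type whose probes may also hybridize to other transcripts, was 2.52-fold lower in EpiLCs + PRDM14 than in EpiLCs (d4) and 2.12-fold higher than in EpiLCs (d2), against 2.61-fold and 1.63-fold at the brightest. The probe sets correlated at r = 0.996 over the 6 arrays, on which both read the same RNA. For *Ascl2*, the probe set of the gene-specific type gave -1.20 in EpiLCs + PRDM14 minus EpiLCs (d4), the dimmest gave -0.53, within the threshold, and the brightest gave -0.90. The dimmest probe set lay below the array median on all 6 arrays, and the gene-specific one on 4. Every probe set of both genes put EpiLCs (d4) above EpiLCs + PRDM14.

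**Figure D2:**
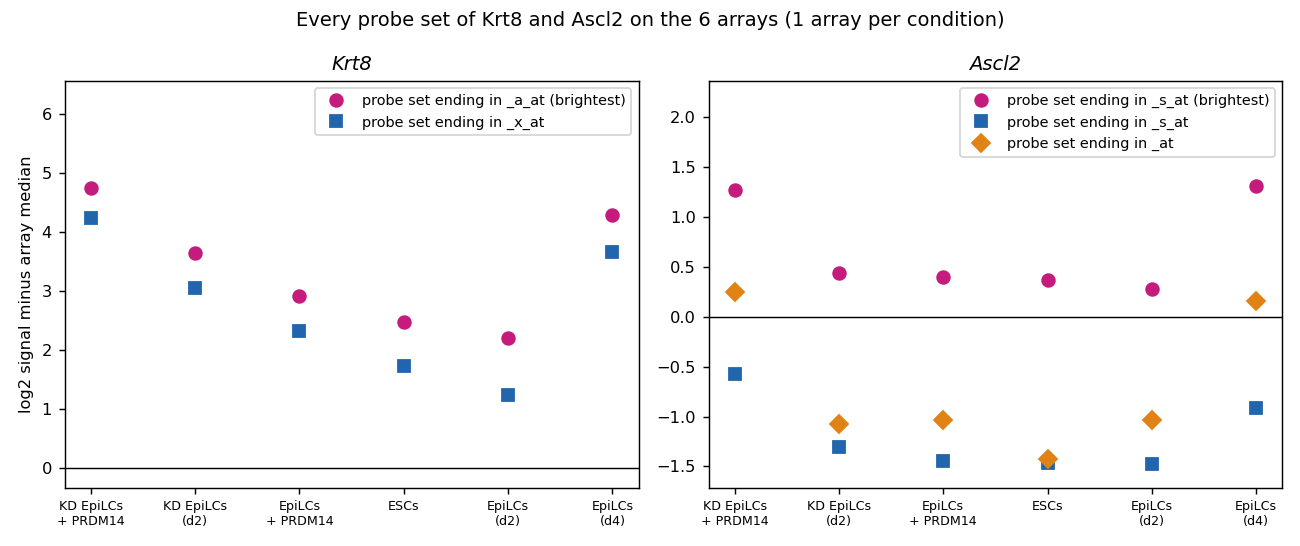
All probe sets of *Krt8* (left) and *Ascl2* (right) on the 6 arrays, as log2 signal minus the array median, with 1 array per condition. Within each gene the probe sets put the same pair of arrays, KD EpiLCs + PRDM14 and EpiLCs (d4), at the top, while their levels relative to the median differ.

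**Figure D3:**
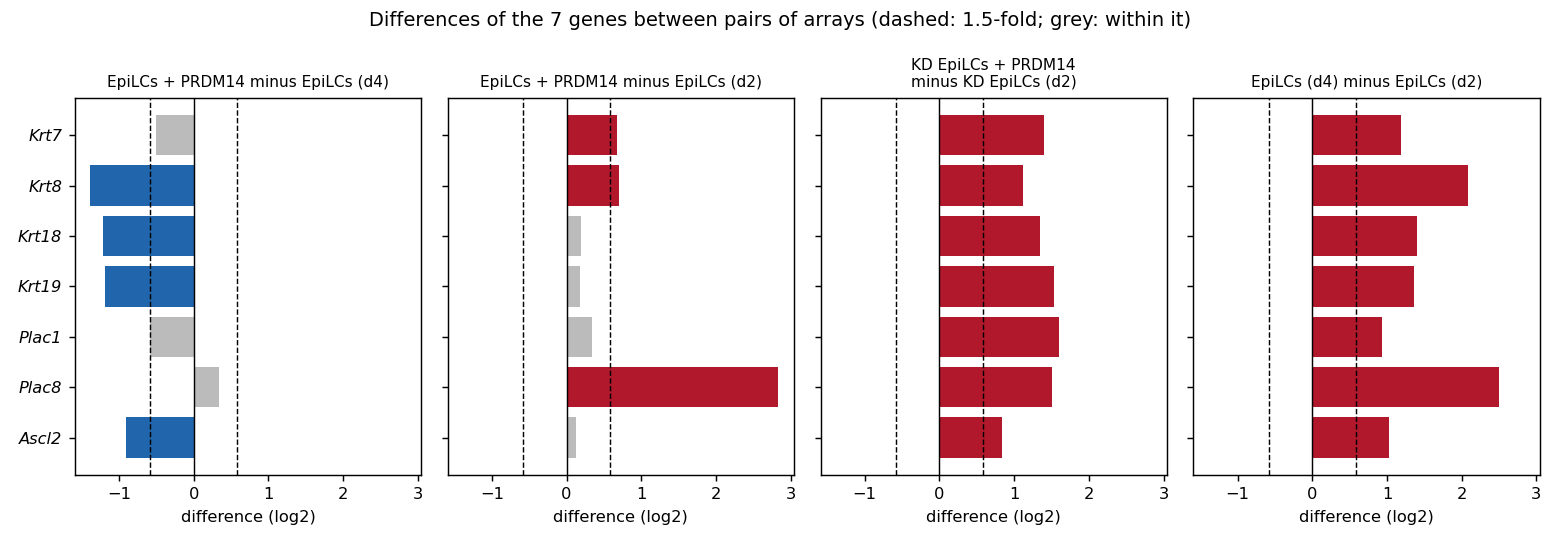
Log2 differences of the 7 genes (rows) in 4 comparisons (panels); dashed lines mark 1.5-fold, red and blue bars are past it and grey bars within it. EpiLCs + PRDM14 minus EpiLCs (d4) has 4 bars past the line to the left, and EpiLCs (d4) minus EpiLCs (d2) and the KD-labelled pair have all 7 past the line to the right.

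Set against EpiLCs (d2), the array from which the cultures with PRDM14 started, EpiLCs + PRDM14 had *Krt7*, *Krt8* and *Plac8* higher by the threshold, 3 of 7, and all 7 differences were above 0, where 2.73% of all genes were higher. The median of the 7 was 0.35, and that of all genes was -0.01. It shares the array of EpiLCs + PRDM14 with the same-day comparison, and the step from day 2 to day 4 shares an array with each. The values side by side were, for *Krt8*, 0.70 with PRDM14 and 2.09 without it, both against EpiLCs (d2). For *Krt19* they were 0.18 with PRDM14 and 1.37 without it, and for *Plac8* 2.83 with PRDM14 and 2.50 without it. *Krt8* in EpiLCs + PRDM14 thus lay between the days without PRDM14, past the threshold from each, and *Krt19* lay within 1.5-fold of day 2.

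Against ESCs, EpiLCs + PRDM14 had *Krt18* (1.86-fold) and *Plac8* (8.95-fold) higher, 2 of 7, where 2.87% of all genes were higher. The other 5 were within 1.5-fold, the closest being *Ascl2* (0.03). EpiLCs (d4) had all 7 higher than ESCs, between 1.78-fold for *Plac1* and 7.10-fold for *Plac8*, where 4.11% of all genes were higher. Per the methods, ESCs were kept with LIF in media other than GK15, and their label names no shRNA. A difference from ESCs spans these as well.

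In the KD-labelled pair, KD EpiLCs + PRDM14 minus KD EpiLCs (d2), all 7 genes were higher past the threshold, where 2.13% of all genes were higher. The differences were 1.40 for *Krt7*, 1.12 for *Krt8*, 1.35 for *Krt18* and 1.53 for *Krt19*. They were 1.60 for *Plac1*, 1.51 for *Plac8* and 0.83 for *Ascl2*. The scramble pair from day 2 to PRDM14 had 0.68, 0.70, 0.19 and 0.18 for the keratins in the same order, so the KD-labelled pair had the larger difference at each. *Plac8* was the exception among the 7, with 1.51 in the KD-labelled pair and 2.83 in the scramble pair. The difference between the pairs was not tested, since each rests on 2 arrays. Their day 2 arrays also differed from each other, as given below.

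Between cultures with PRDM14, KD EpiLCs + PRDM14 were higher than EpiLCs + PRDM14 for 6 genes, with 2.26 for *Krt18* (4.80-fold), 1.85 for *Krt8* (3.60-fold), 1.32 for *Krt19*, 1.15 for *Krt7*, 0.99 for *Plac1* and 0.87 for *Ascl2*. *Plac8* was lower, by 2.60-fold (-1.38). Over all genes, 3.58% were higher and 3.38% lower in this comparison. At day 2, KD EpiLCs (d2) were higher than EpiLCs (d2) for *Krt8* (1.44, 2.71-fold) and *Krt18* (1.10, 2.15-fold), where 3.3% of all genes were higher, and the other 5 genes were within 1.5-fold, from -0.26 for *Plac1* to 0.44 for *Krt7*. In the same day 2 comparison 6 of 11 naive pluripotency genes were higher and 0 lower, with a median of 0.70. The day 2 arrays thus differed in more than the members. The KD-labelled arrays also had the lower medians and 18S controls given above. The part of these in the differences of the members was not tested.

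To show the promoters of these genes, the 250 bases before the annotated start were taken from RefSeq (GRCm38.p6), which gave 8 starts for 6 of the 7 genes, all but *Krt19*. *Krt8* and *Krt18* are neighbours on chromosome 15 that point away from each other, with starts 23.9 kb apart. The promoters of this partner pair, of *Krt7* and of *Plac8*, the gene with the other pattern, are printed 5' to 3' on the strand of the gene, with each CpG in capitals, since the study concerns the removal of methyl groups from CpGs.
*Krt8* (chr15:102004343-102004592, minus strand): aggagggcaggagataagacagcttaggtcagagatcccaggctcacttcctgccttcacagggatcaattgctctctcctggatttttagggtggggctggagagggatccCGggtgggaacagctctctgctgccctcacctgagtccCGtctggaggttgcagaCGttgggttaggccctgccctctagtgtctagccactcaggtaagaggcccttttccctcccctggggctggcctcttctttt
*Krt18* (chr15:102027966-102028215, plus strand): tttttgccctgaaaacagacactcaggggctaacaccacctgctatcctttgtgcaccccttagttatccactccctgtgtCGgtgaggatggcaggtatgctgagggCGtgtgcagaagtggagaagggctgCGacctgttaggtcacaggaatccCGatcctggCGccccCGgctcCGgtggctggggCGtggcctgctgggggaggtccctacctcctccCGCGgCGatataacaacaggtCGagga
*Krt7* (chr15:101412153-101412402, plus strand): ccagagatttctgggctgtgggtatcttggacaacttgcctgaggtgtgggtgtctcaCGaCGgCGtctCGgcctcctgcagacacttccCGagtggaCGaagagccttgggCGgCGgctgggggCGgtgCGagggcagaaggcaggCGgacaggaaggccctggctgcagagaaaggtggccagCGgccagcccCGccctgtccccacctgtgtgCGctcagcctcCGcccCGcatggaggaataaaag
*Plac8*, upstream start (chr5:100572206-100572455, minus strand): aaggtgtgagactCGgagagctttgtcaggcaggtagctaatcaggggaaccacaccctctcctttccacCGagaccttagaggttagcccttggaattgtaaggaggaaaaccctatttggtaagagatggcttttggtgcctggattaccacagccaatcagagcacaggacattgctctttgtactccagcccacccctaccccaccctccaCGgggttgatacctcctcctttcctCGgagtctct
The *Krt7* stretch holds 16 CpGs and that of *Krt18* 12, while *Krt8* has 3 and the upstream *Plac8* start 4, so the partners *Krt8* and *Krt18* are unlike in this respect. *Ascl2* has 19, the downstream *Plac8* start 9, and the *Plac1* starts 2 and 4, and the median of all 32851 promoters is 6. No methylation was measured on these arrays.

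The promoters were searched for 11 short motifs on both strands. The AP-2 motif GCCNNNGGC occurred in *Krt7*, with its first base at -146 and -70 from the start, and in *Krt18*, at -83, and in 13.7% of all promoters. The GATA motif AGATAA occurred in *Krt8*, at -239, and at the upstream *Plac1* start, and in 9.99% of all promoters. The motif CCNCNCCC of KLF and SP factors was in 6 of the 8 member promoters and in 45.9% of all. CAGCTG, an E-box bound by ASCL factors, and CCGGAA, the ETS core, occurred only at the downstream *Plac8* start among the members, and in 13.0% and 12.0% of all promoters. None of the 8 held GGTCTCTAA of PRDM14 (0.24% of all), GGAATG of TEAD factors (12.6%), ATGCAAAT, the octamer (1.60%), TATAAA (12.4%), TGANTCA of AP-1 (6.75%) or CTTTGA of LEF and TCF factors (13.8%). These are matches of letters in these windows only.

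The other keratins were flatter, but the members were chosen by their differences on these same arrays, so nothing is read from the contrast. Of 37 measured keratin genes outside the members, 0 were past the threshold in EpiLCs + PRDM14 minus EpiLCs (d4), where they ranged from -0.25 to 0.21 with a median of 0.02. It was likewise 0 of 37 in the KD-labelled pair, in the step to day 4 without PRDM14 and with PRDM14 against EpiLCs (d2). Over the 4 arrays without the KD label their levels spanned a median of 0.14, and 0.62 at most (*Krt10*), while the 7 members spanned a median of 1.60. Of the 37, 15 were above the array median on none of the 6 arrays, and the mean level of the 37 was only 0.04 to 0.16 above it. In KD EpiLCs (d2) minus EpiLCs (d2), *Krt5* (0.79), *Krt36* (0.75) and *Krt34* (0.64) were past 1.5-fold. *Krt5*, the basal keratin of stratified epithelia, was also higher in KD EpiLCs + PRDM14 than in EpiLCs + PRDM14 (1.02). These 3 genes were named after their values were seen.

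**Figure D4:**
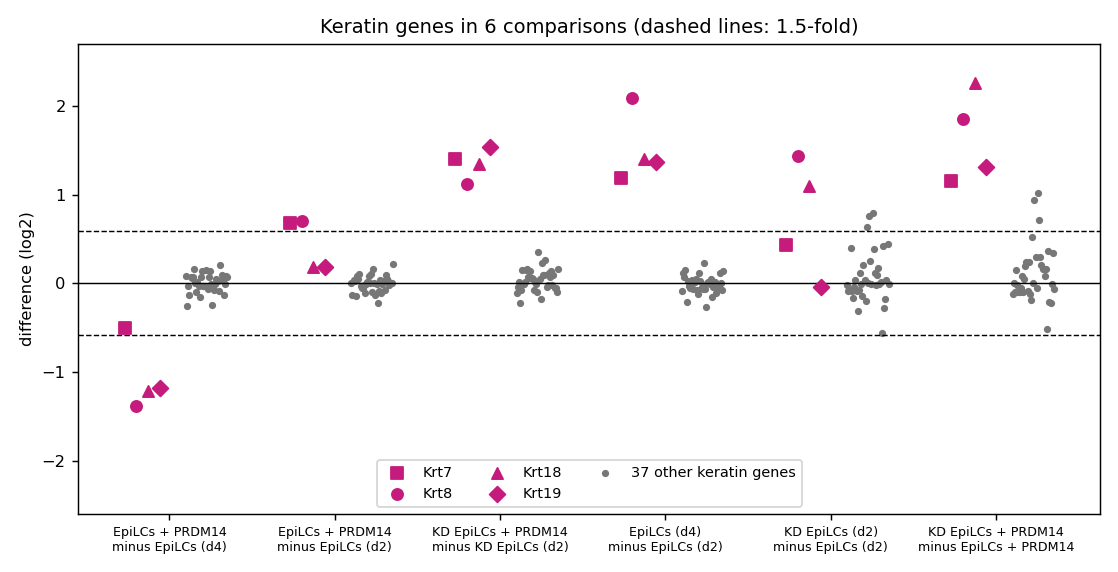
Log2 differences of *Krt7*, *Krt8*, *Krt18* and *Krt19* (coloured) and of 37 other keratin genes (grey, in no order along the axis) in 6 comparisons; dashed lines mark 1.5-fold. The grey points stay within the lines in the comparisons that do not set a KD-labelled array against a scramble one, where most coloured points lie outside them.

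Of 14 genes for the proteins that keratin filaments attach to, 1 was lower and 1 higher in EpiLCs + PRDM14 than in EpiLCs (d4), with a median of 0.03. Between KD-labelled and scramble arrays more of them differed. In KD EpiLCs (d2), 5 were higher and 1 lower than in EpiLCs (d2), with a median of 0.29. Over all genes, 3.3% were higher there. In KD EpiLCs + PRDM14, 3 were higher and 0 lower than in EpiLCs + PRDM14, with a median of 0.38, beside 3.58% of all genes higher. *Krt8* and *Krt18* were higher in these comparisons too. The gene that was lower than in EpiLCs (d4) was *Dsp*, desmoplakin, which ties keratins to desmosomes: it stood 2.04 above the array median in EpiLCs + PRDM14, 2.15 above it in ESCs, 2.38 in EpiLCs (d2) and 3.18 in EpiLCs (d4), a difference of -1.13 between the day 4 cultures. Unlike the keratins, it did not differ past the threshold in the KD-labelled pair (-0.05). The higher one was *Perp*, a desmosomal membrane protein gene, at 2.50 in EpiLCs + PRDM14, against 1.80 in EpiLCs (d4), and its difference from day 2 was 2.36 in the scramble pair and 2.12 in the KD-labelled pair, and 1.66 from day 2 to day 4 without PRDM14.

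Of 15 genes for other intermediate filaments, 2 were higher and 0 lower in EpiLCs + PRDM14 than in EpiLCs (d4), namely the neurofilament genes *Nefh* (0.87) and *Nefl* (0.63). Against EpiLCs (d2), *Vim*, vimentin, was lower by 1.09 on the log2 scale and *Nefl* by 0.75, and in the KD-labelled pair *Nefl* was lower by 2.58. *Vim* stood 3.61 above the array median in EpiLCs + PRDM14, 5.68 in ESCs, 4.71 in EpiLCs (d2) and 3.54 in EpiLCs (d4). The KD-labelled arrays had 4.99 in KD EpiLCs + PRDM14 and 5.21 in KD EpiLCs (d2), so its 2 lowest arrays were EpiLCs + PRDM14 and EpiLCs (d4).

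Regulators of trophectoderm and trophoblast were measured by 15 genes. In EpiLCs + PRDM14 minus EpiLCs (d4) 1 was higher and 0 lower, with a median of 0.01. *Cdx2* (0.00), *Eomes* (0.01) and *Elf5* (0.15), the factors that define trophoblast stem cells, did not reach the threshold in any of the comparisons of EpiLCs, and *Cdx2* stayed between 0.46 and 0.56 above the array median on all 6 arrays. *Tfap2c*, an AP-2 factor gene used in both trophoblast and germ cells, was the higher one, at 2.03 in EpiLCs + PRDM14 and 1.31 in EpiLCs (d4), and was higher by 1.99 against EpiLCs (d2) and by 2.90 in the KD-labelled pair. *Id2*, an inhibitor of helix-loop-helix factors, was higher by 1.37 with PRDM14 than at day 2 and by 1.75 in the KD-labelled pair, and *Fgfr2*, the receptor for FGF4 in trophoblast stem cells, by 0.62 and 1.15. Without PRDM14 the step from day 2 to day 4 was 1.94 for *Id2*, 0.93 for *Fgfr2* and 1.26 for *Tfap2c*, so *Id2* and *Fgfr2* had the larger difference from day 2 without PRDM14. *Gata2* passed only in the KD-labelled pair (0.61). Over the list, the mean level was 1.30 above the array median in KD EpiLCs + PRDM14, 0.84 in KD EpiLCs (d2), 0.92 in EpiLCs + PRDM14, 0.65 in ESCs, 0.65 in EpiLCs (d2) and 0.93 in EpiLCs (d4).

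The list of placental hormone genes and other placental genes was flat. No syncytin gene (*Syna* or *Synb*) was among the measured ones, so the syncytium was not read. None of 14 passed the threshold in any of the 6 comparisons among EpiLCs, with differences between -0.33 and 0.50, and the mean level of the list lay 0.67 to 0.81 below the array median on every array.

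Marker lists of other cell types were read in the same way. Of 18 genes of primitive and visceral endoderm, which also uses KRT8 and KRT18, 0 passed in EpiLCs + PRDM14 minus EpiLCs (d4). Against EpiLCs (d2), *Sparc* (1.34) and *Lamb1* (0.94), both of basement membrane, were higher, and in the KD-labelled pair *Dab2* (0.84), *Sparc* (0.74) and *Lamb1* (0.67) were. Where keratins were higher, some genes of this list were too, with 0 lower. In EpiLCs (d4) minus EpiLCs (d2) they were 3 of 18, with *Lamb1* at 1.20, beside 2.17% of all genes. In KD EpiLCs (d2) minus EpiLCs (d2) they were 4 of 18, beside 3.3%. In KD EpiLCs + PRDM14 minus EpiLCs + PRDM14 they were 6 of 18, beside 3.58%. *Gata4*, *Gata6*, *Sox17*, *Sox7* and *Foxa2* of this list were within 1.5-fold in each. *Apoa1* passed at day 2 (0.66) and with PRDM14 (0.73) between KD-labelled and scramble arrays. The mean level of that list was 0.88 in KD EpiLCs + PRDM14, 0.70 in KD EpiLCs (d2), 0.63 in EpiLCs + PRDM14, 0.60 in ESCs, 0.48 in EpiLCs (d2) and 0.66 in EpiLCs (d4), and its part in the keratin differences was not tested. Of 12 genes of keratinocytes and surface ectoderm, 0 passed against EpiLCs (d4), *Grhl2*, an epithelial factor gene, was lower against EpiLCs (d2) (-0.77) and in the KD-labelled pair (-0.75), and *Grhl3* was higher in the KD-labelled pair (0.95). Of 11 fibroblast genes, 0 passed against EpiLCs (d4) and *Dcn* was lower against EpiLCs (d2) (-0.62), and the mean of the list lay 0.45 to 0.52 below the array median on the 6 arrays.

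ASCL2 binds DNA together with E proteins and is held off by ID proteins. Of 8 genes of these families, *Tcf12*, an E protein gene, was lower (-0.68) and *Id3* was higher (2.54) in EpiLCs + PRDM14 than in EpiLCs (d4). *Id3* was also higher against EpiLCs (d2) (2.97) and in the KD-labelled pair (2.41). *Tcf4*, another E protein gene, was lower in the KD-labelled pair (-0.85). It was also lower in EpiLCs (d4) than in EpiLCs (d2) (-0.64), and in KD EpiLCs (d2) than in EpiLCs (d2) (-0.76). *Tcf12* was higher in EpiLCs (d4) than in EpiLCs (d2) (0.74), and EpiLCs + PRDM14 differed from EpiLCs (d2) by 0.06.

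*Ascl2* lies in a cluster of imprinted genes, and 15 of its neighbours were measured. In EpiLCs + PRDM14 minus EpiLCs (d4) 3 were lower and 0 higher, where 2.15% of all genes were lower. They were *Cdkn1c*, a cell cycle inhibitor gene (-1.39), *Phlda2*, a gene that limits placental growth (-1.05), and *Igf2*, the growth factor gene expressed from the paternal allele (-0.84), beside *Ascl2* at -0.90. *Phlda2* stood 4.08 above the array median in EpiLCs + PRDM14, 1.78 in ESCs, 4.38 in EpiLCs (d2) and 5.13 in EpiLCs (d4), and *Cdkn1c* had 1.65, -0.17, 2.31 and 3.05 on the same arrays. Both had their lowest level in ESCs, as had the gene-specific *Ascl2* probe set. The brightest *Ascl2* probe set was lowest in EpiLCs (d2), by 0.09 from ESCs, and the dimmest was lowest in EpiLCs (d2) too. In the KD-labelled pair *Phlda2* (1.49), *Igf2* (1.25) and *Cdkn1c* (0.91) were higher, as *Ascl2* was (0.83). The median of the 15 neighbours was -0.02 in the day 4 comparison and -0.06 in the KD-labelled pair.

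**Figure D5:**
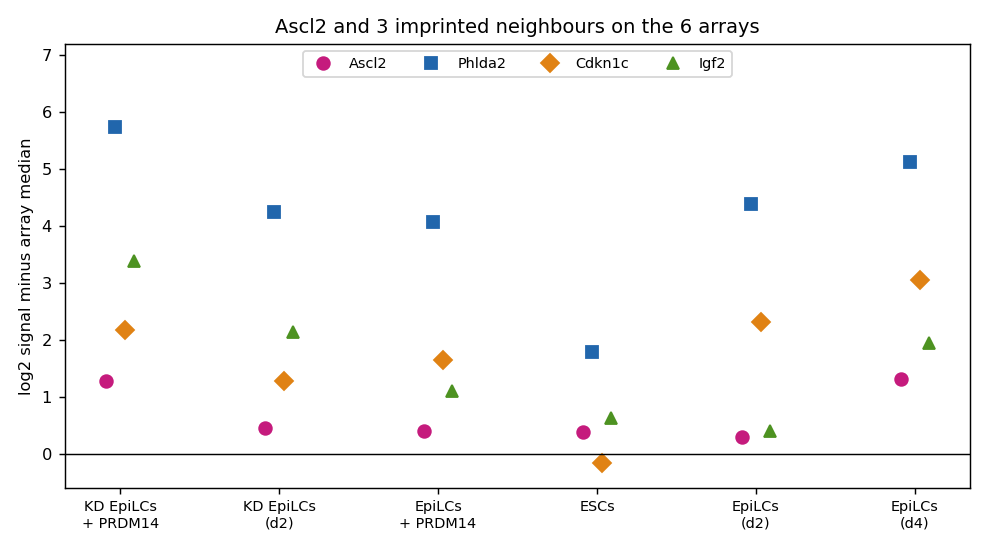
Level of *Ascl2* and of the 3 neighbours past 1.5-fold in EpiLCs + PRDM14 minus EpiLCs (d4), on the 6 arrays, as log2 signal minus the array median; levels are to be compared within a gene only. All 4 genes were picked for their differences on these arrays, so nothing is read from their shared direction in this comparison. The 12 neighbours within 1.5-fold in it are not shown. *Ascl2* is at 0.40 in EpiLCs + PRDM14 against 1.31 in EpiLCs (d4), and *Phlda2* and *Cdkn1c* are lowest in ESCs.

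Over the 6 arrays, which are 6 conditions and share their cell line, the members without *Plac8* correlated with each other at r = 0.72 to 0.98 in 15 pairs, and *Plac8* correlated with them at 0.39 to 0.62. The closest pair was *Krt19* and *Ascl2* (0.98), and *Krt8* and *Krt18* had 0.95. Among the 1215 genes whose levels spanned at least 1 log2 unit, *Igf2* was among the 3 most similar to *Krt8* (0.95), after *Arhgap29* (0.97) and *Cyba* (0.97), and also among the 3 most similar to *Krt18* (0.95), after *Cotl1* (0.97) and *Efnb1* (0.96). *Krt7* was most like *Irx3* (0.99), *Hipk3* (0.98) and *Cyba* (0.98). *Lpgat1* and *App* were among the 3 nearest to *Krt19* (0.99 and 0.98) and to *Ascl2* (0.98 for each). *Plac1* was most like the gene *3830417A13Rik* (0.97), *Lpgat1* (0.95) and *Klf3* (0.95), and *Plac8* like *Eid1* (0.98), *Sash1* (0.97) and *Usp25* (0.96). The 3 genes nearest to *Plac8* were among the 3 nearest of no other member. With 6 points, of which 2 are high for most members, such values are a description of shape.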

How the data were processed

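RNA of 6 cultures, 1 per condition, was hybridized by the authors to Affymetrix mouse array strips after 3' IVT labelling. The deposited unit is the log2 signal of each probe set after RMA, which the submitters' notes credit to the Affymetrix Expression Console (version: not given in the sources used here). Precision is limited by the number of arrays. Of 45141 probe sets, 104 controls were left out, and 28898 have 1 gene symbol in the platform annotation, 551 several and 15588 none. All 6 value columns were used.

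Each gene was read from its brightest probe set, by the mean of the 6 median-centred arrays. Differences of log2 values were called at 1.5-fold, with no p-value and no filter on dim probe sets. The named genes were all probe sets of the members, up to 4 genes per list past the threshold with the largest differences in EpiLCs + PRDM14 minus EpiLCs (d4) or (d2) and in the KD-labelled pair, the 3 genes with the most similar profile to each member, the targeted genes and single genes of the marker lists. The members and the 15 gene lists were chosen with earlier results of these data known. Alternatives were a 2-fold threshold, a filter on dim probe sets, the other scaling, quantile normalization of all arrays, and other rules from probe sets to genes. Python 3.11.15, pandas 2.3.3, numpy 2.4.6 and matplotlib 3.10.9 were used.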

Additional observations from a re-analysis of the deposited data

Results flagged for a closer look

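*Cdkn1c*, the imprinted neighbour of *Ascl2*, moved in opposite directions in the pairs that end with PRDM14. It was higher by 0.91 in KD EpiLCs + PRDM14 than in KD EpiLCs (d2), and in EpiLCs + PRDM14 it was lower than in EpiLCs (d2) (-0.66), a gap of 1.57 between the pairs. The day 2 arrays already differed, with *Cdkn1c* lower in KD EpiLCs (d2) than in EpiLCs (d2) (-1.04). Between the arrays with PRDM14 it was higher in the KD-labelled one by 0.53, within the threshold. Each pair has 2 arrays, so the difference between the pairs was not tested. None of the 7 members moved in opposite directions in these pairs.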

How the results depend on the processing

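Counts of members past the threshold were recomputed under 6 alternatives in each of 9 comparisons and both directions. Counts of 0 that stayed 0 were included. A fall from 7 to 5, as in EpiLCs (d4) minus ESCs at 2-fold, was scored as staying. Of 108 counts, 105 stayed within 1.5 times their main value. The others fell under the 2-fold threshold: in EpiLCs + PRDM14 minus EpiLCs (d2) 1 gene was higher in place of 3 (*Plac8*), in EpiLCs + PRDM14 minus ESCs 1 in place of 2, and in EpiLCs (d2) minus ESCs 0 in place of 1. Of 249 differences of single members recomputed with other scalings, a dim filter or the mean of the probe sets, 248 kept their side of the threshold, and *Plac1* in EpiLCs + PRDM14 minus EpiLCs (d4) passed it with the medians subtracted (-0.588). Direction changed for *Ascl2* in 2 differences within the threshold: EpiLCs (d2) minus ESCs was -0.09, and 0.09 with the mean of the probe sets, and KD EpiLCs (d2) minus EpiLCs (d2) was 0.16, and -0.05 as deposited. No paired analysis was possible because each condition has 1 array. A filter on dim probe sets gives no value for a member below the median on both arrays of a pair. Dim signals near or below the array median, as for *Krt19*, *Krt7* and *Ascl2*, understate differences on the log2 scale to an extent that was not tested.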
